A study of Mus musculus with 6 samples.

Results

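The mitochondrial ribosomal protein genes were examined as a group of 76 genes among the 18193 genes that the arrays measured with a probe set of their own. Members were all genes whose platform symbol began with Mrpl or Mrps followed by a digit, and each was represented by its brightest probe set over the 6 arrays. The symbols divided them into 47 Mrpl genes, named for the large subunit, and 29 Mrps genes, named for the small subunit. A further 2 genes, Mrpl30 and Mrpl53, were on the array only through probe sets shared with another gene and were not analysed here.

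The mitochondrial ribosome, or mitoribosome, sits in the mitochondrial matrix and translates the few messenger RNAs encoded by mitochondrial DNA, all of which specify subunits of the respiratory chain and ATP synthase. Its ribosomal RNAs come from mitochondrial DNA, whereas all of its proteins are encoded in the nucleus, made in the cytosol and imported. Many of these proteins have a counterpart of the same number in bacterial ribosomes, and the others were added during the evolution of mitochondria.

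The RNA came from Ba/F3, an interleukin-3-dependent mouse pro-B cell line that serves as a test bed for oncogenic kinases, transduced with the fusion protein SPAG9-JAK2 in a Tet-On retroviral system. Induced cultures received 500 ng/ml doxycycline and uninduced cultures received none, RNA was taken 48 hours later, and each condition had 3 cultures measured on 3 Affymetrix 3′ arrays. All 6 cultures therefore carried the fusion construct, the comparison asked which genes were affected by its expression, and no array with doxycycline but without the fusion was analysed here, so the drug and the fusion cannot be told apart. The labels do not say whether the line was a single clone, whether interleukin-3 stayed in the medium, or whether the cultures of a triplicate were independent experiments, so the p-values reflect the variation among these 6 arrays alone, which may be technical.

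The deposited values were signal intensities scaled to the same trimmed mean on every array, with median signals of 46.5 to 55.2 on the induced arrays and 46.3 to 63.8 on the uninduced arrays. Uninduced replicate 1 stood apart from the other uninduced arrays, as described for the members below. Its ratio of 3′ to 5′ actin signal, a measure of RNA and labelling quality, was 1.602, and that of induced replicate 1 was 1.57, against 1.14 to 1.37 on the other 4 arrays. The same ratio for Gapdh did not set this array apart in that way. It was 0.688 on uninduced replicate 1 and 0.609 to 0.697 on induced arrays, against 0.793 and 0.761 on uninduced replicates 2 and 3. The interferon-inducible GTPase gene Gbp2 rose by 6.61 ± 0.52 on the log2 scale (SE, limma adjusted p = 0.0304). The mouse Jak2 probe set read 1430, 1740 and 1600 units on induced arrays and 1175, 3439 and 3081 on uninduced arrays (log2 fold change -0.54 ± 0.41, SE, limma adjusted p = 0.542), and whether it reads the fusion transcript was not tested. Of 9 measured markers of the labelled pro-B identity, the B-cell receptor gene Cd79b was the brightest in every array, at log2 levels of 8.27 to 8.78 in induced arrays and 8.34 to 8.71 in uninduced arrays. The median of the 9 was far lower, at 4.95 to 5.48 in induced arrays and 5.16 to 5.84 in uninduced arrays. Of the 9, 8 had a negative log2 fold change, and the median was -0.24. The recombinase genes Rag1 and Rag2 and the receptor gene Cd79a lay at or below 5.25 in induced arrays and 5.84 in uninduced arrays, near the mean of a list of liver and brain genes, which was 5.48 to 5.76 in induced arrays and 5.67 to 6.05 in uninduced arrays. Of the interleukin-3 receptor genes, the beta subunit gene Csf2rb was at 13.64 to 14.41 in induced arrays and 13.10 to 13.65 in uninduced arrays, and Csf2rb2 at 12.97 to 13.64 in induced arrays and 12.49 to 13.46 in uninduced arrays. The alpha subunit gene Il3ra was at 8.61 to 9.07 in induced arrays and, without overlap, at 9.25 to 9.72 in uninduced arrays (-0.73 ± 0.21, SE, limma adjusted p = 0.176), and Kit was at 4.43 to 5.74 in induced arrays and 5.59 to 5.85 in uninduced arrays. The summed signal of 7 measured granulocyte and monocyte markers was 327 to 1140 units on induced arrays and 916 to 2867 on uninduced arrays, with 0 of the 7 past the adjusted threshold. Their median log2 fold change was -1.23, 4 of the 7 were lower at an unadjusted p of 0.05 with separated groups, and 3 were called lower without uninduced replicate 1. Of all genes, 7.14% were higher and 10.3% lower at that unadjusted p in limma. The share of all genes separated downward was 13.4%, and 4.77% were called lower without uninduced replicate 1. The summed signal of 7 mast cell and basophil markers was 209 to 521 units on induced arrays and 503 to 1572 on uninduced arrays, with 1 higher and 1 lower at an unadjusted p of 0.05, the lower one the chymase gene Cma1. The part of either list in the results below was not tested. Because RNA was extracted in bulk, fewer cells of a type and less RNA per cell cannot be told apart.

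Most mitochondrial ribosomal protein genes had more signal in induced than in uninduced cells, by a small margin that no single gene carried past the adjusted threshold. Of the 76 members, 62 had a positive log2 fold change (81.6%, against 44.1% of all genes), and the median was 0.33, against -0.06 over all genes. The middle of the distribution was narrow, with quartiles of 0.09 and 0.50. At an adjusted p of 0.05 over all genes in limma, 0 of the 76 members were called, where 0.187% of all genes were called, 0.115% as higher and 0.0715% as lower, and the smallest adjusted p among members was 0.0904. Other settings called a few members, all of them higher in induced cells. They were 11 members when only genes at or above the median level were fitted (3.55% of all such genes higher, 8.16% in either direction). They were 8 with trended and robust variance (1.30% of all genes higher, 3.02% in either direction). With a pseudocount of 64 it was 1 (0.66% and 1.39%), and without both replicate 1 arrays 10 (2.88% and 8.12%). At an unadjusted p of 0.05, 24 members were higher in induced cells and 0 were lower, which is 31.6% and 0% of the members. The same limma threshold took 7.14% of all genes as higher and 10.3% as lower.

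The 3 induced values lay above all 3 uninduced values for 34 members, 44.7% of the group, where 10.7% of all genes showed such a separation. The reverse held for 2 members, Mrpl23 and Mrpl24, which is 2.63%, where 13.4% of all genes did so. All 76 members stood at or above the median level of all genes, and among the 9097 genes at or above it the 2 shares were 16.9% and 18.9%. The differences were small in size. A difference of 2-fold or more upward was reached by 1 member, Mrpl20, and downward by 0. A margin of 1.41-fold was reached upward by 19 members (25% of them, against 10.5% of all genes) and downward by 0 (17.4% of all genes). A margin of 1.19-fold was reached upward by 43 members (56.6%, against 23.6% of all genes) and downward by 5 (33.2% of all genes). The size of the difference had little relation to the level of a member (Pearson r = 0.18 and Spearman rho = 0.20 across the 76 genes, which share arrays and are not independent replicates).

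**Figure D1:**
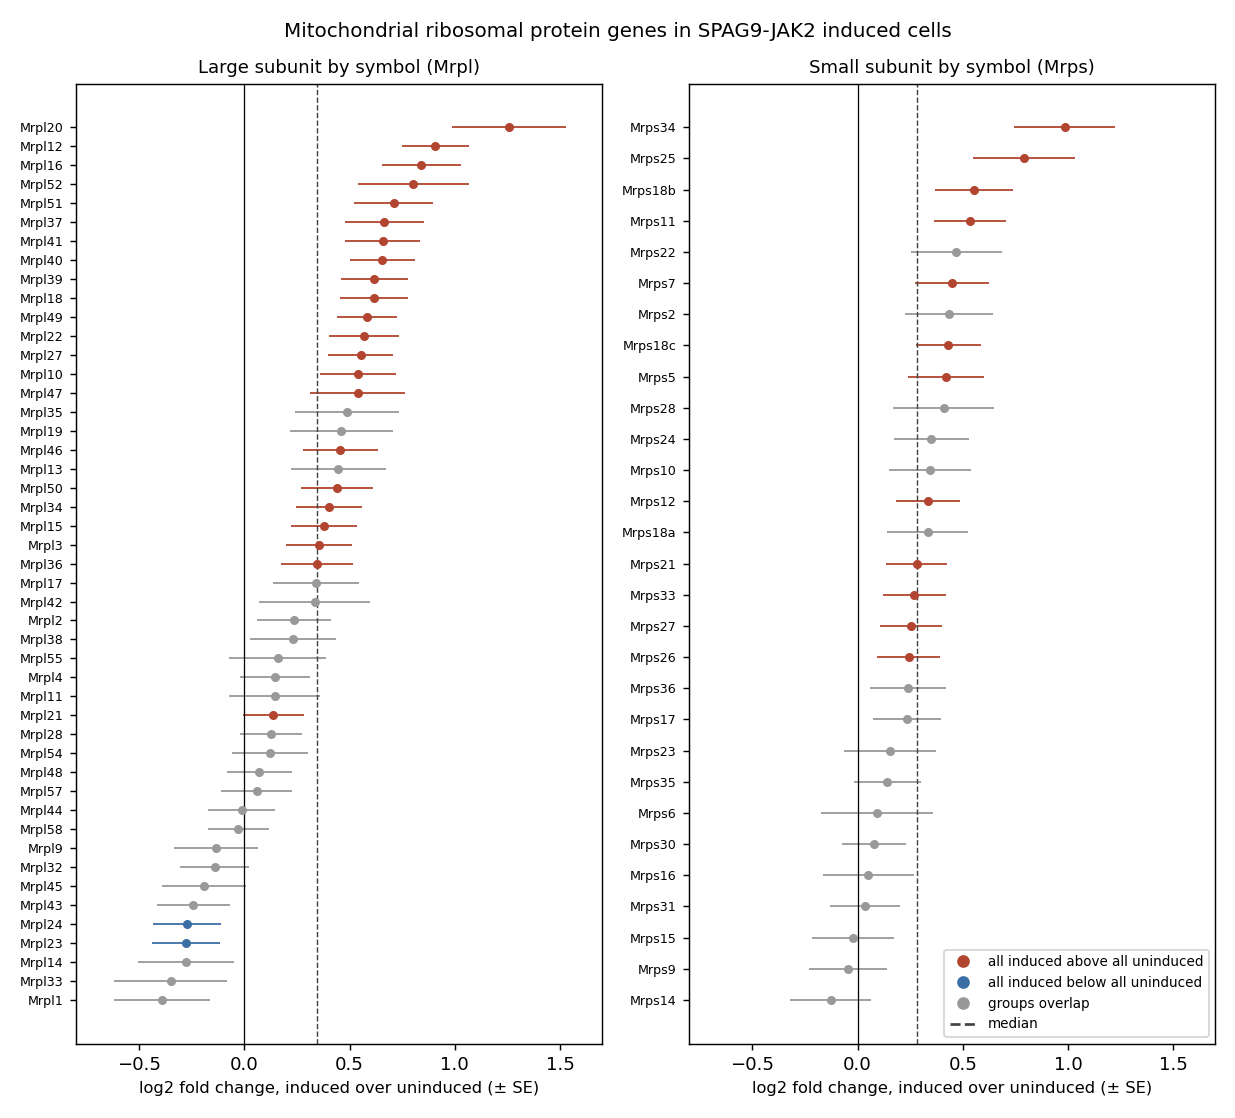
Log2 fold change of signal, induced over uninduced cells, for each of the 76 members with its standard error, Mrpl genes on the left and Mrps genes on the right. Red marks the 34 members whose induced arrays all lay above the uninduced arrays, blue the 2 for which all lay below, grey the rest, and the dashed lines mark medians of 0.35 and 0.28.

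Averaged over all 76 genes, the level on the log2(signal + 16) scale was 11.30, 11.35 and 11.31 in induced replicates 1, 2 and 3, against 11.14, 10.95 and 10.97 in uninduced replicates 1, 2 and 3. Every induced array thus lay above every uninduced array, and the uninduced arrays were the more spread, with a group mean of 11.32 ± 0.03 in induced cells and 11.02 ± 0.11 in uninduced cells (SD, n = 3 each). The large-subunit genes averaged 11.40, 11.45 and 11.41 in induced arrays, against 11.23, 11.06 and 11.06 in uninduced arrays. The small-subunit genes averaged 11.13, 11.20 and 11.17 in induced arrays, against 10.998, 10.77 and 10.82 in uninduced arrays. In both sets uninduced replicate 1 was the highest of the uninduced arrays. The levels themselves come from different probe sets and were not set against each other.

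Genes of the large and the small subunit differed from their own mean by nearly the same amount on each array. The mean deviation of the Mrpl genes minus that of the Mrps genes was 0.02, -0.01 and -0.01 on induced arrays and -0.02, 0.03 and -0.02 on uninduced arrays. The median log2 fold change was 0.35 for Mrpl genes and 0.28 for Mrps genes, a difference of 0.065, and the means were 0.30 and 0.30. The Mrpl genes ranged from -0.39 to 1.26, with 36 of 47 positive, and the Mrps genes from -0.13 to 0.98, with 26 of 29 positive. Separated groups with induced arrays on top were seen for 22 Mrpl genes (46.8%) and 12 Mrps genes (41.4%), against 10.7% of all genes. At an unadjusted p of 0.05 in limma 18 Mrpl and 6 Mrps genes were higher, against 7.14% of all genes. The difference of the medians ran from -0.014 without induced replicate 1 to 0.15 without uninduced replicate 1. It was not tested, since genes are not replicates.

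**Figure D2:**
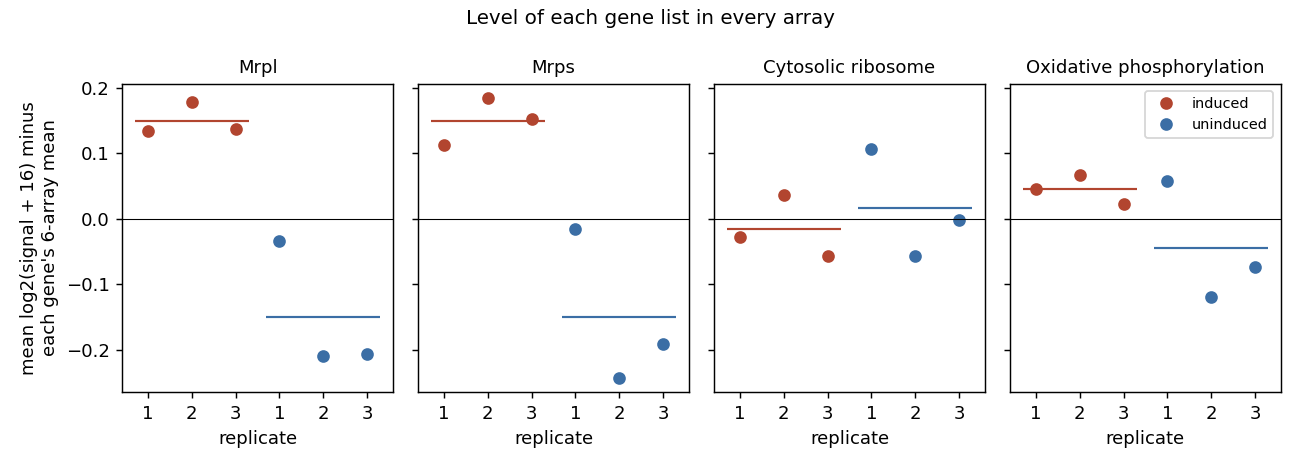
Mean deviation from each gene's 6-array mean, in log2(signal + 16), on every array for Mrpl genes, Mrps genes, 46 cytosolic ribosomal protein genes and 82 nuclear oxidative phosphorylation genes, with lines at the group means. All 3 induced arrays lay above all 3 uninduced arrays for Mrpl and Mrps genes, and uninduced replicate 1 lay closest to the induced arrays, whereas the groups overlapped for the other lists.

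The last 150 bases before the RefSeq transcription start (GRCm38.p6) of 6 members are shown because their separation between the conditions is described in detail. Mrpl12, Mrpl20, Mrpl16 and Mrpl51 were among the members with the largest positive differences, and Mrpl23 and Mrpl24 were the 2 members with all induced arrays below. Capitals mark matches to the 4 short motifs spelled out after them, and all sequences read 5′ to 3′.
Mrpl12, chr11:120484487-120484636, plus strand: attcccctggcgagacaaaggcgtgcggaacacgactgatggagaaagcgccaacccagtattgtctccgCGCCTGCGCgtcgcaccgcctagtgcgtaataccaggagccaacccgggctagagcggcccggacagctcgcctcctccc
Mrpl20, chr4:155802728-155802877, plus strand: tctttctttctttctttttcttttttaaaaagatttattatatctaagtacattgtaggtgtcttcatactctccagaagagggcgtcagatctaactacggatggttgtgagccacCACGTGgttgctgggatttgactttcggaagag
Mrpl16, chr19:11770265-11770414, plus strand: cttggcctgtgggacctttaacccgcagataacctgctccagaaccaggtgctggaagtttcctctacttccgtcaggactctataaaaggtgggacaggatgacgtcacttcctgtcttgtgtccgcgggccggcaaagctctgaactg
Mrpl51, chr6:125192050-125192199, plus strand: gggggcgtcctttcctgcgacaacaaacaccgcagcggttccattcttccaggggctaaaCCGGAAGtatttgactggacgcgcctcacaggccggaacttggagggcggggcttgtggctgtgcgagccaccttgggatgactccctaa
Mrpl23, chr7:142532882-142533031, plus strand: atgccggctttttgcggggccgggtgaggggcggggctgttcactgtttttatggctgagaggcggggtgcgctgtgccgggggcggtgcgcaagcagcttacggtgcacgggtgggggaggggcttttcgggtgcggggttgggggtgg
Mrpl24, chr3:87919394-87919543, plus strand: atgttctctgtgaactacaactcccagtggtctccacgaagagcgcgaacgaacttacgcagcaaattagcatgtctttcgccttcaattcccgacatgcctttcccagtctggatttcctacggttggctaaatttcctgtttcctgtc

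Motifs known from promoters of nuclear genes for mitochondrial proteins were searched on both strands in windows of 250 bases before and 50 bases after each start, and were chosen after the values were seen. The RefSeq table held 67 of the 76 members in 73 windows. The letters GCGCANGCG, bound by nuclear respiratory factor NRF1, occurred in 15 member windows (20.5%), against 6.25% of all 32851 windows. The letters CCGGAAG, bound by ETS family factors such as the GABP complex, occurred in 25 member windows (34.2%), against 8.86% of all windows. The letters AAGATGGCG, bound by the zinc finger factor YY1, occurred in 8 member windows (10.96%), against 1.403% of all windows. At least 1 of these 3 motifs was present in 40 member windows (54.8%), against 14.8% of all windows, and the matches overlapped in 0 cases. The E-box letters CACGTG, bound by MYC and related factors, occurred in 7 member windows (9.59%), against 7.15% of all windows. In the sequences above, Mrpl12 holds the NRF1 letters on the reverse strand, Mrpl51 the ETS letters and Mrpl20 the E-box, while Mrpl16, Mrpl23 and Mrpl24 hold none of the 4 in the bases shown. These are matches of letters and were not tied to binding in these cells.

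Large-subunit genes not listed as lacking a bacterial counterpart, Mrps18a included, gave 23 positive values among 30, with a median log2 fold change of 0.34. The list of those lacking one did not hold Mrpl55 (0.16), so that gene was counted among the 30. The smallest limma p of any member belonged to Mrpl12, whose product forms the flexible stalk that contacts translation factors. Its signal was 5992, 7267 and 7066 units in induced replicates 1 to 3, against 3646, 3421 and 3715 in uninduced replicates 1 to 3. The 3 uninduced values lay close together and well below every induced value, with means of 6775 ± 686 in induced cells and 3594 ± 154 in uninduced cells (SD, n = 3 each) and a log2 fold change of 0.91 ± 0.16 (SE, limma adjusted p = 0.0904). Mrpl20, whose bacterial counterpart binds ribosomal RNA early in assembly of the subunit, had 2530, 3976 and 3120 units in induced arrays, against 1791, 1090 and 1151 in uninduced arrays. The groups did not overlap, and in both of them replicate 1 was the array nearest to the other condition. The means of Mrpl20 were 3209 ± 727 in induced cells and 1344 ± 388 in uninduced cells (SD, n = 3 each), for a log2 fold change of 1.26 ± 0.27 (SE, limma adjusted p = 0.123).

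Mrpl16, whose bacterial counterpart lies near the site where aminoacyl-tRNA is held, had 6620, 8959 and 8583 units in induced arrays, against 3963, 4613 and 4816 in uninduced arrays. Replicate 1 was here the lowest array of each condition, and the groups were well separated, with a log2 fold change of 0.84 ± 0.19 (SE, limma adjusted p = 0.132). Mrpl18, whose bacterial counterpart binds the smallest ribosomal RNA of the large subunit, had 4861, 5781 and 6105 units in induced arrays, against 3503, 3685 and 3683 in uninduced arrays. All induced values again lay above a tight uninduced group, by 0.61 ± 0.16 on the log2 scale (SE, limma adjusted p = 0.155). Mrpl27, Mrpl22 and Mrpl10 were also separated, at 0.55 ± 0.15, 0.57 ± 0.16 and 0.54 ± 0.18 (SE).

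Large-subunit proteins listed as lacking a bacterial counterpart gave 15 positive values among 19 measured genes, with a median of 0.33. At an unadjusted p of 0.05 in limma 9 of the 19 were higher, against 7.14% of all genes. Mrpl40 had 2638, 2887 and 2977 units in induced arrays, against 1954, 1667 and 1763 in uninduced arrays (log2 fold change 0.66 ± 0.15, SE, limma adjusted p = 0.138). Mrpl49 had 1158, 1150 and 1201 units in induced arrays, against 760, 802 and 764 in uninduced arrays. Its arrays lay close together within both groups, at 1170 ± 27.1 in induced cells and 775 ± 23.3 in uninduced cells (SD, n = 3 each), and its log2 fold change was 0.58 ± 0.14 (SE, limma adjusted p = 0.143). Mrpl39 had 5820, 6939 and 5835 units in induced arrays, against 4307, 3806 and 3960 in uninduced arrays (0.62 ± 0.16 on the log2 scale, SE, limma adjusted p = 0.151). Mrpl51 had 8624, 7599 and 8461 units in induced arrays, against 6180, 4493 and 4544 in uninduced arrays (0.71 ± 0.19, SE, limma adjusted p = 0.159). Neither gene had overlapping groups, but Mrpl51 showed an uninduced replicate 1 well above its fellows, which Mrpl49 did not. Mrpl52, 1 of the 2 brightest members, had 9651, 8687 and 8562 units in induced arrays, against 7533, 4233 and 4221 in uninduced arrays. Its uninduced replicate 1 stood nearer to the induced arrays than to the other uninduced ones, and the log2 fold change was 0.80 ± 0.26 (SE, limma adjusted p = 0.211).

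**Figure D3:**
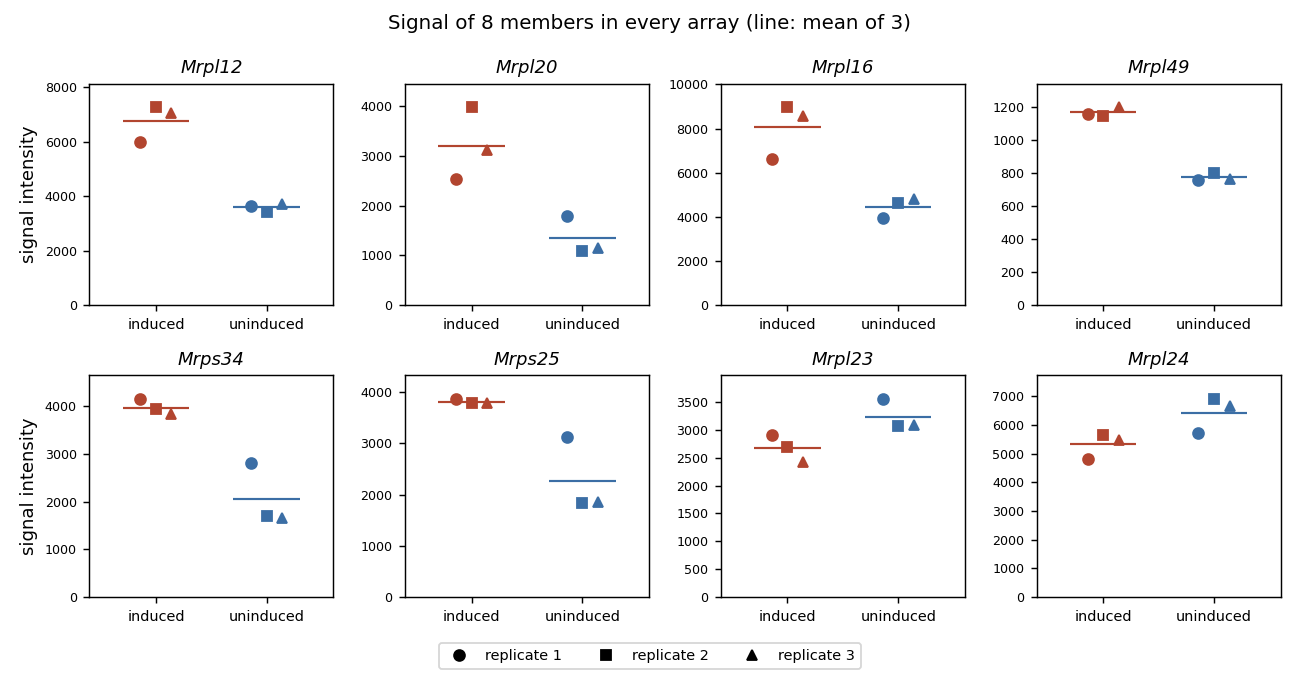
Signal intensity of 8 members on every array on a linear axis from 0, induced left of uninduced, with circles, squares and triangles for replicates 1, 2 and 3 and a line at the mean. Mrpl12, Mrpl16 and Mrpl49 have tight uninduced groups, Mrpl20, Mrps34 and Mrps25 have a raised uninduced replicate 1, and Mrpl23 and Mrpl24 are lower in all induced arrays.

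In the small subunit, all 9 measured proteins without a bacterial counterpart had positive values, with a median of 0.25. Mrps34, needed in mammals for a stable small subunit, had 4148, 3943 and 3831 units in induced arrays, against 2814, 1707 and 1663 in uninduced arrays. The induced values were close together and uninduced replicate 1 stood between the groups, giving 3974 ± 161 in induced cells and 2061 ± 652 in uninduced cells (SD, n = 3 each) and a log2 fold change of 0.98 ± 0.24 (SE, limma adjusted p = 0.144). Mrps25 had 3864, 3796 and 3787 units in induced arrays, against 3121, 1832 and 1864 in uninduced arrays. Its pattern was like that of Mrps34, with uninduced replicate 1 raised and the groups separate, and a log2 fold change of 0.79 ± 0.24 (SE, limma adjusted p = 0.192). The dimmest members, Mrps27 and Mrps31, belonged to this class too. Mrps27, a pentatricopeptide repeat protein, had 566, 501 and 543 units in induced arrays, against 463, 433 and 445 in uninduced arrays, without overlap (0.25 ± 0.15, SE, limma adjusted p = 0.421). Mrps31 had 452, 404 and 364 units in induced arrays, against 438, 373 and 379 in uninduced arrays, and its groups overlapped (0.03 ± 0.17, SE).

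Small-subunit genes with a bacterial counterpart gave 14 positive values among 17, with a median of 0.34. Mrps11, whose counterpart lies at the platform beside the messenger RNA exit, had 1160, 1426 and 1340 units in induced arrays, against 1005, 814 and 877 in uninduced arrays (0.53 ± 0.17 on the log2 scale, SE, limma adjusted p = 0.203). Mrps7, whose counterpart starts assembly of the head of the small subunit, had 1754, 2311 and 2297 units in induced arrays, against 1603, 1440 and 1572 in uninduced arrays (0.45 ± 0.18, SE, limma adjusted p = 0.266). Both genes kept their groups apart, although induced replicate 1 was close to uninduced replicate 1. Mrps14 had 4815, 7092 and 6451 units in induced arrays, against 6471, 6529 and 6803 in uninduced arrays, and was the lowest Mrps member at -0.13 ± 0.19 (SE, limma adjusted p = 0.774). It was low in induced replicate 1 only, and its groups overlapped. Mrps9 had 2070, 1690 and 1580 units in induced arrays, against 2098, 1722 and 1684 in uninduced arrays (-0.05 ± 0.18, SE, limma adjusted p = 0.932), with overlap.

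Mammals have 3 paralogues of the bacterial protein of this number, Mrps18a, Mrps18b and Mrps18c, of which structures place Mrps18a in the large subunit and the other two in the small subunit. Mrps18b had 1838, 1915 and 1783 units in induced arrays, against 1552, 1117 and 1134 in uninduced arrays (0.55 ± 0.19, SE, limma adjusted p = 0.219). Mrps18c had 4630, 5376 and 4895 units in induced arrays, against 3929, 3474 and 3631 in uninduced arrays (0.43 ± 0.15, SE, limma adjusted p = 0.233). Mrps18a had 1630, 2080 and 1927 units in induced arrays, against 1275, 1460 and 1746 in uninduced arrays (0.33 ± 0.19, SE, limma adjusted p = 0.421). All 3 were positive, and the groups of Mrps18a alone overlapped, through its uninduced replicate 3. Mrps30, also placed in the large subunit, had 2105, 2005 and 1777 units in induced arrays, against 1926, 1854 and 1784 in uninduced arrays, with overlap (0.08 ± 0.15, SE, limma adjusted p = 0.832). Mrps36, since assigned to the 2-oxoglutarate dehydrogenase complex of the citric acid cycle, had 1741, 2054 and 2476 units in induced arrays, against 1703, 1721 and 1829 in uninduced arrays, with overlap (0.24 ± 0.18, SE, limma adjusted p = 0.543). With Mrps30 and Mrps18a counted as large and Mrps36 left out, the medians were 0.34 over 49 large-subunit genes and 0.31 over 26 small-subunit genes.

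The 14 members with a negative value were 11 Mrpl and 3 Mrps genes, and their sizes reached only -0.39. Mrpl1, whose counterpart forms the mobile stalk that escorts spent tRNA out of the ribosome, had 805, 762 and 501 units in induced arrays, against 983, 792 and 905 in uninduced arrays. Induced replicate 1 exceeded uninduced replicate 2, so the groups overlapped (-0.39 ± 0.23, SE, limma adjusted p = 0.428). Mrpl33 had 1480, 1004 and 1734 units in induced arrays, against 1384, 2078 and 1869 in uninduced arrays, and its arrays were mixed (-0.35 ± 0.27, SE, limma adjusted p = 0.543). The 2 separated members were chosen here for that separation. Mrpl23, whose counterpart borders the exit of the nascent peptide, had 2908, 2689 and 2418 units in induced arrays, against 3548, 3077 and 3080 in uninduced arrays (-0.28 ± 0.16, SE, limma adjusted p = 0.429). Mrpl24, whose counterpart nucleates folding of the large ribosomal RNA, had 4825, 5646 and 5477 units in induced arrays, against 5726, 6893 and 6657 in uninduced arrays (-0.27 ± 0.16, SE, limma adjusted p = 0.442). The gap between the groups was narrow for both, since the highest induced Mrpl24 value lay just under its lowest uninduced one. Of the other negative members, Mrpl14, Mrpl43, Mrpl45 and Mrpl32 lay between -0.28 and -0.14.

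The choice of probe set mattered for some members. The group had 156 probe sets, and 42 members had more than 1. Of 61 further probe sets at or above the median level of all probe sets, 19 pointed the other way from the one used, in 15 members, which were Mrpl1, Mrpl3, Mrpl9, Mrpl17, Mrpl28, Mrpl33, Mrpl38, Mrpl44, Mrpl48, Mrpl50, Mrpl57, Mrps5, Mrps14, Mrps15 and Mrps23. Mrpl44, whose product resembles ribonuclease III, stood at -0.01 by the probe set used and at 0.15, 0.36 and 0.30 by 3 dimmer ones. Mrpl17 stood at 0.34 by the probe set used and at -0.56 and 0.32 by its others at or above that level. Mrpl3 stood at 0.35 by the probe set used and at 0.40 and -0.49 by its others. For Mrps5 the probe set used gave 0.42 and the others 0.63, -0.26 and 0.19, and for Mrpl50 the values were 0.44 and -0.14. Mrpl1 stood at -0.39 by the probe set used and at 0.14 and -0.28 by the others. By contrast, the 3 dimmer probe sets of Mrpl51 and Mrpl49 named here gave 0.46 and 0.62 for Mrpl51 and 0.72 for Mrpl49, on the same side as those used.

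Of the single arrays left out, uninduced replicate 1 was the one that changed the number of adjusted calls most. The number of positive members did not depend on it, at 62 with this array and 62 without it. They were not all the same members. Without the array Mrpl44 and Mrps9 turned positive, at 0.03 and 0.05, and Mrps16 and Mrps23 negative, at -0.07 and -0.002. The median log2 fold change was 0.33 with uninduced replicate 1 and 0.38 without it. Uninduced replicate 1 was the highest of the 3 uninduced arrays for 53 of the 76 members (69.7%, against 46.9% of all genes) and the lowest for 19. It exceeded the mean of uninduced replicates 2 and 3 by a median of 0.19 on the log2 scale over members, against 0.08 over all genes. For 36 members it lay at or above the lowest induced array (47.4%, against 77.0% of all genes), and for 27 it lay inside the induced range (35.5%, against 39.97% of all genes). Members differed in this respect. It stood above the mean of the other two uninduced arrays by 0.83 for Mrpl52, 0.82 for Mrpl42, 0.75 for Mrps25, 0.73 for Mrpl35 and 0.67 for Mrpl20, but by 0.03 for Mrpl12, -0.04 for Mrpl49, -0.07 for Mrpl18 and -0.25 for Mrpl16. For 15 members, among them Mrpl42, Mrpl35, Mrpl13, Mrpl19 and Mrps22, this array alone made the groups overlap where the induced arrays otherwise lay on top. They were 15 of the 49 members whose induced arrays lay above uninduced replicates 2 and 3. Among all genes with that order it was 1935 of 3877. Taken over every gene, the shares were 19.7% of members and 10.6% of all genes.

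Without uninduced replicate 1, limma called 10 members higher over all genes (13.2%, where 3.22% of all genes were called higher) and 0 lower (4.77% of all genes). The 10 were Mrpl12, Mrpl20, Mrpl37, Mrpl40, Mrpl51, Mrpl52, Mrps18b, Mrps22, Mrps25 and Mrps34. The induced arrays then lay above both remaining uninduced arrays for 49 members (64.5%, against 21.3% of all genes) and below for 9 (11.8%, against 24% of all genes). All 9 of those below carried Mrpl symbols, namely Mrpl9, Mrpl14, Mrpl23, Mrpl24, Mrpl32, Mrpl33, Mrpl43, Mrpl45 and Mrpl58, whereas 32 Mrpl and 17 Mrps genes lay above. The median log2 fold change without that array was 0.45 for Mrpl genes and 0.31 for Mrps genes. The uninduced array left out also had the raised actin ratio given above, as did induced replicate 1, but its Gapdh ratio was not raised. The part of either ratio in the result was not tested.

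Taking the replicate numbers apart gave the same direction at different sizes. Between induced and uninduced replicate 1 the median log2 difference was 0.14 (0.10 for Mrpl and 0.15 for Mrps genes), and 54 of 76 members were positive. Between the means of replicates 2 and 3 it was 0.38 (0.43 for Mrpl and 0.34 for Mrps genes), and 64 were positive. These comparisons shared no array. In all, 50 members were positive in both and 8 negative in both, 14 were positive in replicates 2 and 3 only and 4 in replicate 1 only. Across the 76 members the differences ran together (Pearson r = 0.65, Spearman rho = 0.64), as a description over genes of the same arrays. Mrpl49 had equal differences of 0.60 and 0.58, Mrpl16 had 0.74 and 0.89, and Mrpl12 had 0.71 and 1.004, in replicate 1 and in replicates 2 and 3. Mrpl35, by contrast, had -0.17 and 0.81, and Mrpl20 had 0.49 and 1.64.

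**Figure D4:**
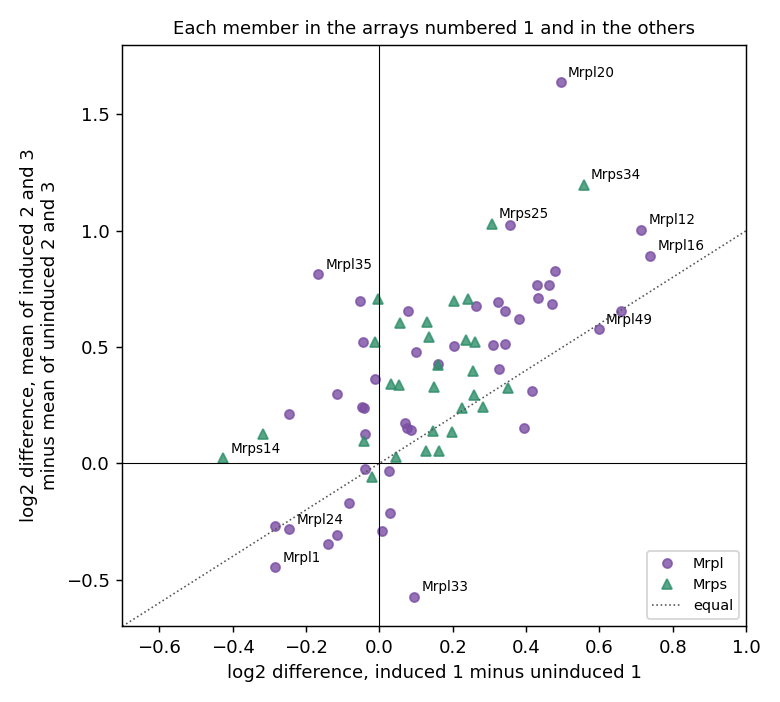
Log2 difference of each member between induced and uninduced replicate 1 (horizontal) and between the means of replicates 2 and 3 (vertical), circles for Mrpl and triangles for Mrps genes, with a dotted line of equality. Of the 76 members 50 are positive on both axes, most above the line, and 8 are negative on both.

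Other nuclear genes of mitochondrial translation were compared from lists chosen with earlier results of these data known, and 0 genes passed the adjusted threshold in any of them. Of 4 measured ribosomal proteins whose symbols do not begin with Mrpl or Mrps, 3 were positive. The large-subunit gene Gadd45gip1 stood at 9.98, 10.50 and 10.34 on the log2 scale in induced arrays, against 9.64, 9.81 and 9.85 in uninduced arrays, without overlap (log2 fold change 0.51 ± 0.19, SE, limma adjusted p = 0.2502). The small-subunit genes Ptcd3, Chchd1 and Dap3 differed by 0.49 ± 0.23, 0.19 ± 0.14 and -0.11 ± 0.15 (SE).

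Assembly factors and ribosomal RNA enzymes numbered 27, of which 20 were positive with a median of 0.26. At an unadjusted p of 0.05 in limma 6 were higher and 1 lower, against 7.14% and 10.3% of all genes. Groups were separated upward for 8 and downward for 4, against 10.7% and 13.4% of all genes. Those downward were Mettl15, Mtg1, Mterf4 and Ddx28. Ddx28, a helicase of large-subunit assembly, stood on the opposite side from most members. Its log2 levels were 8.81, 9.07 and 8.70 in induced arrays, against 9.55, 9.80 and 9.68 in uninduced arrays, with no overlap (-0.82 ± 0.17, SE, limma adjusted p = 0.122). The factor genes Rcc1l and Gtpbp10, which act in maturation of the mitoribosome, stood at 0.78 ± 0.17 and 0.66 ± 0.19 (SE) with separated groups. Translation factors numbered 13, with 9 positive and a median of 0.28, and 2 were higher at an unadjusted p of 0.05. The elongation factor gene Tsfm and the methionyl-tRNA formyltransferase gene Mtfmt differed by 0.51 ± 0.19 and 0.51 ± 0.21 (SE), and the elongation factor gene Gfm1 by 0.40 ± 0.17 (SE). Each had all induced arrays on top. In the whole list 4 genes were separated upward and 1 downward, the latter Oxa1l (-0.39 ± 0.18, SE).

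Mitochondrial aminoacyl-tRNA synthetases, which charge the tRNAs that the mitoribosome reads, numbered 16, with 12 positive and a median of 0.36. At an unadjusted p of 0.05 in limma 4 were higher, against 7.14% of all genes. Cars2 stood at 8.90, 9.19 and 9.10 on the log2 scale in induced arrays, against 8.49, 8.02 and 7.86 in uninduced arrays, again with a raised uninduced replicate 1 (0.94 ± 0.21, SE, limma adjusted p = 0.132). Yars2 and Iars2 differed by 0.69 ± 0.23 and 0.47 ± 0.17 (SE), also without overlap. In the whole list 4 genes were separated upward and 1 downward, the latter Wars2 (-0.29 ± 0.15, SE). Of all genes, 10.7% were separated upward and 13.4% downward. The lowest of the list, Aars2, named after its values were seen, stood at 8.33, 8.83 and 8.58 on the log2 scale in induced arrays, against 8.55, 9.89 and 9.77 in uninduced arrays. Its uninduced replicate 1 lay within the induced range (-0.82 ± 0.38, SE, limma adjusted p = 0.331), and it was called lower without that array. In the same setting 2 genes of the list, Cars2 and Rars2, were called higher. Of all genes, 3.22% were then called higher and 4.77% lower. The 8 genes for transcription and maintenance of mitochondrial DNA had a median nearer to 0, at 0.07, with 5 positive and 0 past an unadjusted p of 0.05. Ssbp1, a single-stranded DNA-binding protein, stood at 0.66 ± 0.28, Tfb2m, a transcription initiation factor, at 0.40 ± 0.17, and Twnk, the replicative helicase, at -0.37 ± 0.17 (SE).

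**Figure D5:**
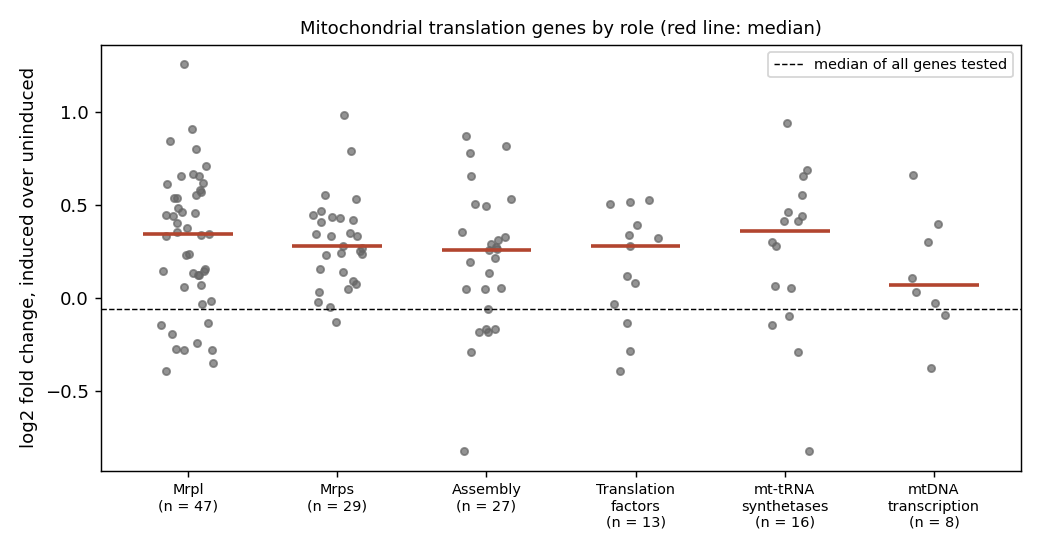
Log2 fold change, induced over uninduced, of each measured gene by role in mitochondrial translation, with red lines at the medians of 0.35, 0.28, 0.26, 0.28, 0.36 and 0.07 from left to right and a dashed line at the median of all genes, -0.06. The first 5 roles have most genes above 0, and Ddx28 is the lowest assembly gene.

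On the same arrays the respiratory chain genes leaned upward as the members did, though less, and the cytosolic ribosomal protein genes did not. Of 46 cytosolic ribosomal protein genes, 17 were positive, the median was -0.03, 0 passed an unadjusted p of 0.05 in limma in either direction, and 1 was separated upward and 5 downward. Of 82 nuclear oxidative phosphorylation genes, 55 were positive (67.1%) with a median of 0.15. Of them, 11 were higher and 6 lower at an unadjusted p of 0.05 in limma, and 24 were separated upward and 8 downward. Over all genes, 44.1% were positive with a median of -0.06. The shares of all genes were 7.14% higher and 10.3% lower at that p, and 10.7% separated upward and 13.4% downward. On the same scale of deviations as the members, the oxidative phosphorylation genes averaged 0.05, 0.07 and 0.02 on induced arrays, against 0.06, -0.12 and -0.07 on uninduced arrays, so that uninduced replicate 1 lay within the induced range. These lists were set beside the members as descriptions, and the differences between lists were not tested.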

How the data were processed

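Total RNA of 6 Ba/F3 cultures, 3 induced and 3 uninduced by the labels' titles, was measured on Affymetrix mouse arrays. The deposited values are signal intensities on a linear scale from Affymetrix Expression Console 1.4.1, per the submitters' processing notes. The sources used here do not give how probes were summarised. Each array's values showed scaling to a trimmed mean of 500 (2% left out at each end). Of 45101 probe sets, 64 controls were left out, and the 34945 with 1 symbol in the platform table were used (932 had several, 9160 none), the brightest per gene, giving 18193 genes. Symbols of 204 probe sets were unmatched in the GRCm38.p6 gene table. From the intensities log2(signal + 16) was computed and fitted with limma 3.58.1 in R 4.3.3 (lmFit, eBayes). Tests were two-sided with 4 residual degrees of freedom, and p-values were adjusted by Benjamini-Hochberg across the 18193 genes with a threshold of 0.05. The code was tested on simulated data. An exact permutation test of 3 against 3 arrays cannot go below 0.1 and was not used. A fold change on this scale slightly understates that of dim genes.

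The members and lists were chosen with earlier results of these data known. Members named with values were the 8 Mrpl and 6 Mrps genes of smallest p, the 2 lowest of each, the 2 brightest and 2 dimmest, the Mrps18 paralogues, Mrps30, Mrps36 and those with opposing probe sets, and from other lists up to 3 genes of smallest p. Further members and neighbours were named after their values were seen. Alternatives were median centring, a replicate block, quantile normalization, pseudocounts of 1 and 64, a filter at the median level, other probe set rules, trended robust variance and leaving out arrays. Promoter sequences are from RefSeq (GRCm38.p6). Figures were drawn with matplotlib 3.10.9.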

Additional observations from a re-analysis of the deposited data

How the results depend on the processing

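The 3 arrays per condition limit the precision, and the deposited values came without detection calls. The count of members past the adjusted threshold was 0 as reported and depended on the settings. It was 1 with a pseudocount of 64, 8 with trended and robust variance, 11 when only genes at or above the median level were fitted, 10 without both replicate 1 arrays, and 0 to 10 when single arrays were left out (10 without uninduced replicate 1). The member called with a pseudocount of 64 was Mrpl12. With a block for the replicate number it was 0, with a smallest adjusted p of 0.198 in limma, and 21 members had an unadjusted p under 0.05, against 24 as reported. The genes called among all genes, Gbp2 included, numbered 34 as reported, 0 with the block and 0 to 1453 with single arrays left out. After each gene's own group mean was subtracted, the deviations of same-numbered induced and uninduced arrays correlated over all genes at 0.17, 0.08 and 0.08. Each was the best for its array. The fit as reported did not treat the numbers as pairs, and whether same-numbered arrays shared a batch was not tested. The median log2 fold change stayed between 0.24 (mean of each gene's probe sets, where the Mrpl median was also 0.24) and 0.40 (median centring) in every setting run, and the Mrpl median ran from 0.28 to 0.45 with single arrays left out. The difference of the Mrpl and Mrps medians, 0.065 as reported, was 0.015 after quantile normalization, -0.0017 with the mean of the probe sets, 0.10 with the most variable probe set, 0.031 by structural subunit and -0.014 to 0.15 with single arrays left out. Members whose groups did not overlap numbered 36 as reported (47.4%, against 24.1% of all genes), 37 to 58 with single arrays left out (48.7% to 76.3%, against 30.3% to 45.3% of all genes) and 67 without both replicate 1 arrays (88.2%, against 58.8%). The share of all genes was thus also higher with these arrays left out.

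The sign of some members near 0 or with discordant probe sets turned. After median centring Mrpl44, Mrps15 and Mrps9 stood at 0.055, 0.045 and 0.022. With the mean of the probe sets Mrpl33, Mrpl44, Mrpl9 and Mrps15 stood at 0.20, 0.20, 0.083 and 0.27, and Mrpl48 and Mrpl57 at -0.14 and -0.038. With the most variable probe set Mrpl33, Mrpl44, Mrpl9, Mrps14 and Mrps15 stood at 0.74, 0.36, 0.24, 0.018 and 0.51, and Mrpl17, Mrpl38, Mrpl48, Mrpl57, Mrps11 and Mrps5 at -0.56, -0.025, -0.48, -0.13, -0.47 and -0.49. Without both replicate 1 arrays Mrps14 and Mrps15 stood at 0.021 and 0.13. With single arrays left out Mrpl44 ranged from -0.083 to 0.038, Mrpl57 from -0.021 to 0.16, Mrps14 from -0.24 to 0.035, Mrps15 from -0.18 to 0.10, Mrps23 from -0.0018 to 0.29, Mrps31 from -0.042 to 0.11 and Mrps9 from -0.16 to 0.054. The cause was not tested.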

Other observations

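Many mitochondrial ribosomal protein genes share a start region with a neighbour on the opposite strand. In the RefSeq table such a neighbour lay within 1000 bases for 25 of 67 matched members (37.3%), against 3311 of 27025 genes (12.3%). Of the 24 measured pairs with a member, 14 had the same sign (58.3%, against 55.1% of 842 such pairs in all). The 14 were 12 pairs both higher in induced cells and 2 both lower. Over the 842 pairs, 249 were both higher and 215 both lower. The starts of the large-subunit gene Mrpl46 and the small-subunit gene Mrps11 were 42 bases apart. Their log2 fold changes were 0.46 ± 0.18 and 0.53 ± 0.17 (SE), and both had all induced arrays on top. Mrpl27 and the endonuclease subunit gene Eme1, 48 bases apart, stood at 0.55 ± 0.15 and 0.87 ± 0.18 (SE), again both separated. Other pairs parted. Mrpl49 stood at 0.58 ± 0.14 and its neighbour Fau, which encodes a cytosolic ribosomal protein, at -0.25 ± 0.16 (SE), with starts 192 bases apart. Mrpl41 stood at 0.66 ± 0.18 and Pnpla7, a lysophospholipase gene with its start 935 bases away, at -1.56 ± 0.33 (SE).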
